A study of Mus musculus with 6 samples.

Results

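The genes described here are the germline-encoded sensors of microbes and tissue damage, their proximal adaptors, and the C-type lectin and Fc receptors of myeloid cells. They were taken by symbol: those that begin with Tlr, Clec or Irak and a digit, all that begin with Nlr or Fcgr, and Myd88, Ticam1, Ticam2, Cd14 and Ly96. The rule found 70 of the 17933 genes listed: 12 Toll-like receptors, 5 co-receptors and adaptors, 5 IRAK genes, 14 NLR genes, 5 Fc receptors and 29 C-type lectins. Because it reads names, it also takes genes with other functions, such as Clec16a, a regulator of autophagy, Fcgrt, the neonatal Fc receptor, and Irak1bp1, a binding protein of IRAK1.

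RNA came from kidneys of wild-type male C57BL/6 mice aged 6 to 8 weeks. The 3 stone samples came from animals injected intraperitoneally with glyoxylic acid, a precursor of oxalate, at 120 mg/kg daily over 12 days, which makes calcium oxalate crystals form in the kidney. The 3 control samples came from animals given saline of the same volume. The comparison asks which genes differed between stone and control kidneys. Values are FPKM, fragments scaled to gene length and library size, so levels of different genes may be set side by side. In whole tissue, more cells of a type and more RNA per cell cannot be told apart.

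Toll-like receptors sense lipids, proteins and nucleic acids at the cell surface or in endosomes and signal through Myd88 or Ticam1, with IRAK kinases acting directly after Myd88. NLR proteins are cytosolic, and some of them assemble inflammasomes, the platforms that activate caspase-1; crystals are among the triggers of the Nlrp3 inflammasome. Many C-type lectin receptors and the activating Fc receptors signal through tyrosine-based activation motifs, carried by themselves or by the adaptors Fcer1g and Tyrobp. Fcgr2b and some lectins carry an inhibitory motif instead.

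Promoter sequence is shown for the Fc receptors because the activating receptor genes rose in these data and the inhibitory Fcgr2b was not called. It is shown for Clec7a as a lectin gene that rose. The sequence searched was GAGGAA, on both strands, the core of the purine-rich box bound by PU.1 and other ETS factors of myeloid cells, in the 250 bases before each start annotated by RefSeq (GRCm38.p6). Both this motif and the genes shown were chosen after values and matches had been seen, and a window that ran past the start was looked at before this one. Capitals mark GAGGAA or its reverse complement, and each sequence runs 5′ to 3′ on the strand of the gene. The windows are chr3:96293970-96294219 for Fcgr1, chr1:171059404-171059653 for Fcgr3, chr1:170976072-170976321 for Fcgr2b and chr6:129472786-129473035 for Clec7a, all on the minus strand, and chr1:171018676-171018925 for Fcgr4 on the plus strand.
Fcgr1: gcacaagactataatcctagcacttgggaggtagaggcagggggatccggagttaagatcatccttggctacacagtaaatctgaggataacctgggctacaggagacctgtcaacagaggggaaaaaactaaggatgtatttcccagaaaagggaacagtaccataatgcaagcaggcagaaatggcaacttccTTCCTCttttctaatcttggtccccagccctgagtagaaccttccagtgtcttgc
Fcgr3: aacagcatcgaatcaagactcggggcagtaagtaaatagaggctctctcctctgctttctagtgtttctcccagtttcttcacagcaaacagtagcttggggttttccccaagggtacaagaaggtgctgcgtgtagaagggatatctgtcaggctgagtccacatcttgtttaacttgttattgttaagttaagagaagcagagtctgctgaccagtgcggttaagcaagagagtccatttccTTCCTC
Fcgr4: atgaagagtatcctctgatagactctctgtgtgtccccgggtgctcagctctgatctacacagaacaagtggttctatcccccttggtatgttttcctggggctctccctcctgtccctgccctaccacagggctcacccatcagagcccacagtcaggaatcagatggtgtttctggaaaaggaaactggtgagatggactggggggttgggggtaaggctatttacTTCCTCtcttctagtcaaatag
Fcgr2b: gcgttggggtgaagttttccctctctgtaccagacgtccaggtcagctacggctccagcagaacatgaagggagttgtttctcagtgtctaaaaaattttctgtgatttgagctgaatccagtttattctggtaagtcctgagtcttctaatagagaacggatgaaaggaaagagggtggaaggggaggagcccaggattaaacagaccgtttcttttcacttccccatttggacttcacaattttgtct
Clec7a: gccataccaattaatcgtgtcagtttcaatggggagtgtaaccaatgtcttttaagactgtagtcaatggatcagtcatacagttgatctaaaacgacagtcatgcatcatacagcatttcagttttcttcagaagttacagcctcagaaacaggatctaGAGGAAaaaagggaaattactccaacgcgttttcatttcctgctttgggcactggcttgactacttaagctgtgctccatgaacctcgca

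The 3 activating Fc receptor genes and Clec7a each hold 1 match in these windows, and Fcgr2b holds no match. Chromosome 18, where Cd14 and Ticam2 lie, was left out of the counts that follow, for members and for all genes. RefSeq starts on the other chromosomes were found for 57 of the 70 members. Of these, 26 (45.6%) hold the sequence, beside 26.0% of 14146 genes. It is present in 19 of the 27 that rose with no filter on level (70.4%) and in 7 of the other 30 (23.3%). Motif and division were both chosen with these results known, so the shares are only a description. The share among all genes that rose was not computed, so the shares cannot be called particular to the members. The only other motif searched, the NF-kappaB consensus, was present on either strand in 6 members (Fcgr3, Fcgr4, Tlr2, Tlr3, Nlrp3 and Clec2l), or 10.5%, and in 5.44% of all genes. A match is a string of letters and does not show binding.

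Stone kidneys held more transcript of Fcgr3, Cd14, Tlr2, Clec4n and other members, and less of Fcgrt and Nlrc4. Of the 70 genes, 34 averaged at least 1 FPKM across all libraries and were tested together with every other gene of that level. By limma on log2(FPKM + 1), at a Benjamini-Hochberg adjusted p below 0.05, 20 of the 34 rose in stone kidneys, against 43.5% of all 12319 genes tested, and 4 fell, against 13.9%. The members' median log2 fold change was 0.53, beside 0.21 for all tested genes. In 9 of the 34 the control mean was below 1 FPKM, so they entered the test only through their stone values. They were Tlr1, Tlr2, Tlr7, Irak3, Fcgr1, Clec1a, Clec4a2, Clec4a3 and Clec4n. In Nlrc4 the stone mean was below 1 FPKM, so it entered only through its control values. Among the 24 with means of at least 1 FPKM in both groups, 12 rose and 3 fell. The share of all genes under that condition was not computed. In each of the 20 that rose and the 4 that fell the stone and control values did not overlap, which a call from 3 samples a group makes likely. Of the members tested and not called, only Irak1 had groups without overlap, with stone lower. Thus 20 of the 34, or 58.8%, were higher without overlap, against 49.8% of all tested genes. Lower without overlap were the 4 that fell and Irak1, against 16.5% of all tested genes.

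Scaling moved these counts. Median-of-ratios scaling shifted the median of all tested genes by -0.2 on the log2 scale, to 0.01; 18 of the 34 then rose, against 23.9% of all, and 7 fell, against 24.9%. Quantile normalization gave 16 higher, against 22.3%, and 7 lower, against 25.5%. Equal FPKM sums gave 25 higher, against 68.5%, and 2 lower, against 6.47%. With no filter on level all 70 members could be fitted, of which 35 rose, against 33.3% of 17587 genes, and 5 fell, against 10.0%. With no filter and median-of-ratios scaling together, an alternative added after seeing the data, 28 rose, against 18.6%, and 9 fell, against 17.8%.

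**Figure D1:**
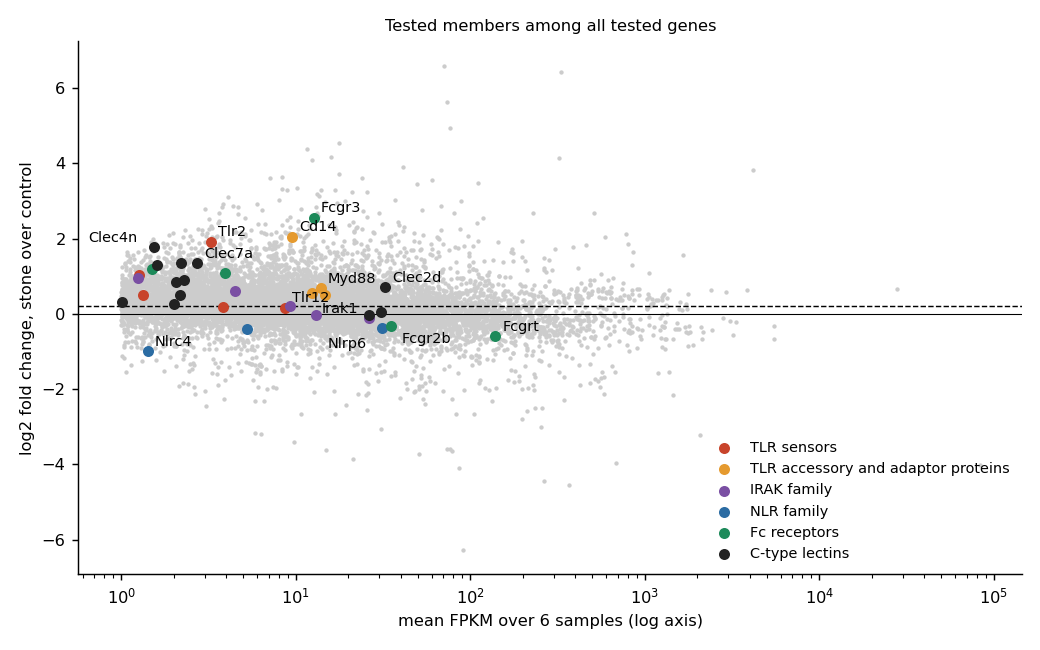
Each grey point is 1 of 12319 tested genes and each coloured point 1 of the 34 tested members, with mean FPKM over 6 samples on a log axis and the log2 fold change of stone over control, computed on log2(FPKM + 1), on the other axis; the dashed line is the median of all tested genes, 0.21. Fcgr3, Cd14 and Tlr2 lie highest among the members, at 2.56, 2.05 and 1.92, and Nlrc4 lowest, at -0.99.

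Depth was recovered from the low values, by a method chosen after the data were seen. For genes with a single annotated transcript, FPKM multiplied by length clustered at whole multiples of a constant, which puts the control libraries at 13200000 to 13800000 counted fragments and the stone libraries at 14000000 to 14800000. Of the low values, 67.9% to 69.4% lay within 0.2 of a whole fragment, where evenly spread values would give 40%.

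Of the 5 Fc receptor genes, all tested, the 3 activating receptors rose and Fcgrt fell, against 43.5% and 13.9% of all tested genes. The inhibitory Fcgr2b was not called. Fcgr3, the low-affinity activating receptor for IgG that signals through the common gamma chain, lies on chromosome 1 from 171051174 to 171064935 (GRCm38, minus strand). It measured 2.8, 2.46 and 3.47 FPKM in control and 17.92, 29.75 and 19.49 FPKM in stone samples. Every stone sample lay several times above every control sample, with stone sample 2 the highest. Fcgr3 rose from 2.91 ± 0.514 to 22.4 ± 6.42 FPKM (SD, n = 3 each; log2 fold change 2.56, SE 0.19; limma, adjusted p = 8.72e-05), the highest fold change of the 34 on the log2(FPKM + 1) scale; with 0.1 FPKM added Clec4n stood higher, at 4.21 against 2.88.

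Fcgr1, the high-affinity IgG receptor of monocytes and macrophages, was at 0.43, 0.7 and 0.41 FPKM in control and 1.64, 3.21 and 2.66 FPKM in stone samples. Its groups did not overlap, and it rose (log2 fold change 1.19, SE 0.191; limma, adjusted p = 0.00194). Fcgr4, another activating receptor, was at 1.37, 2.04 and 3.23 FPKM in control and 5.7, 6.05 and 5.16 FPKM in stone samples. It rose as well (log2 fold change 1.08, SE 0.2; limma, adjusted p = 0.00348), and its stone samples lay closer together than its control samples.

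Fcgr2b, the inhibitory receptor, which is carried by B cells and macrophages and by some endothelial cells, took a different course. It measured 36.27, 37.88 and 43.49 FPKM in control and 26.14, 39.21 and 28.43 FPKM in stone samples. Stone samples 1 and 3 lay below all control samples and stone sample 2 lay among them, so the groups overlapped. The change did not pass (log2 fold change -0.34, SE 0.15; limma, adjusted p = 0.0914). It passed as lower with median-of-ratios scaling (-0.56, adjusted p = 0.0149), with quantile normalization (-0.47, adjusted p = 0.0362) and without stone sample 2 (-0.5, adjusted p = 0.00897).

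A ratio of FPKM values within a sample does not depend on the scaling of that sample. Ratios were computed for 5 pairs of genes chosen after values were seen, with no test. Fcgr3 over Fcgr2b was 0.0772, 0.0649 and 0.0798 in control samples and 0.686, 0.759 and 0.686 in stone samples. Stone sample 2, the highest stone sample for both genes, had a ratio near those of the other stone samples. Fcgr4 over Fcgr2b was 0.0378 to 0.0743 in control and 0.154 to 0.218 in stone samples, and Fcgr1 over Fcgr2b 0.00943 to 0.0185 in control and 0.0627 to 0.0936 in stone samples, so Fcgr2b had the highest level of these 4 genes in each of the 6 samples. Fcgr2b, Fcgr4 and Fcgr3 lie together in 106 kb of chromosome 1 and are related in sequence, so their fragments are uncertain where relatives share them.

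Fcgrt, the neonatal Fc receptor that recycles IgG and albumin in epithelium and endothelium, had the highest level of all 70 genes. It measured 162.17, 181.12 and 156.37 FPKM in control and 118.64, 109.37 and 102.85 FPKM in stone samples. All stone samples were below all control samples, and Fcgrt fell (log2 fold change -0.59, SE 0.0815; limma, adjusted p = 0.00103), as it did under each of 13 other settings, between -0.82 and -0.31. In the same libraries 9 proximal tubule markers summed to 3956 to 4349 FPKM in control and 2838 to 3405 FPKM in stone samples. Most of that sum is Slc34a1. Of these markers 1 rose and 4 fell, or 3 and 3 with equal FPKM sums, and their part in the Fcgrt values was not tested.

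**Figure D2:**
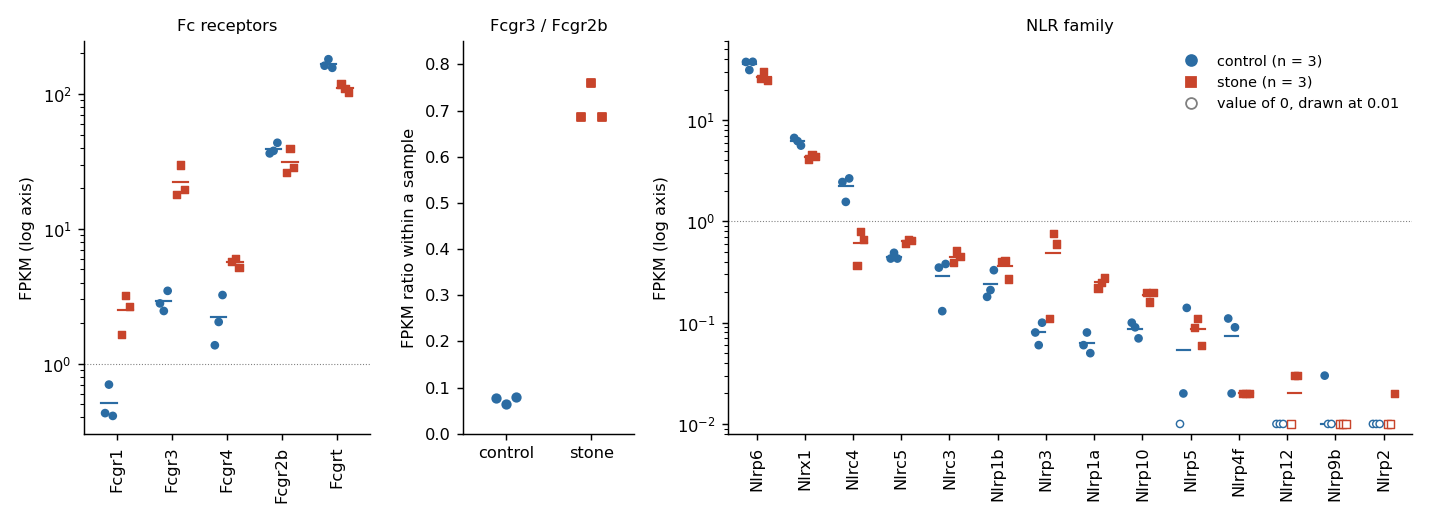
FPKM on log axes for the 5 Fc receptor genes (left) and the 14 NLR genes (right) in 3 control (circles) and 3 stone (squares) samples, with bars at group means and values of 0 drawn open at 0.01. The middle panel gives the ratio of Fcgr3 to Fcgr2b in each sample on a linear axis, 0.0649 to 0.0798 in control and 0.686 to 0.759 in stone samples.

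Of 20 genes listed for signalling by activation motifs, motif-bearing adaptors and phosphatases included, 15 were tested. Of the 15, 13 rose, against 43.5% of all tested genes (11 with median-of-ratios scaling, 10 with quantile normalization). The median log2 fold change of the 15 was 0.51. Fcer1g, the common gamma chain of the activating Fc receptors and of several lectins, was at 14.51, 13.44 and 16.72 FPKM in control and 42.37, 70.11 and 54.12 FPKM in stone samples (limma, adjusted p = 0.000239). Tyrobp, the adaptor DAP12, was at 10.61, 11.76 and 11.13 FPKM in control and 28.44, 54.11 and 38.5 FPKM in stone samples (limma, adjusted p = 0.000542). Stone sample 2 was the highest in both. Fgr, a Src family kinase of myeloid cells, rose from 0.493 ± 0.0635 to 1.83 ± 0.293 FPKM (SD, n = 3 each; limma, adjusted p = 0.00103).

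Of 11 other Fc receptor genes in the data 5 were tested, with 1 higher and 2 lower, against 43.5% and 13.9% of all tested genes. Fcamr, a receptor for IgA and IgM, fell from 9.37 ± 2.01 to 2.68 ± 0.201 FPKM (SD, n = 3 each; limma, adjusted p = 0.000274). Pigr, the epithelial transporter of polymeric immunoglobulin, was at 54.07, 52.42 and 45.07 FPKM in control and 35.01, 39.83 and 32.04 FPKM in stone samples (limma, adjusted p = 0.00549), a fall that did not pass with equal FPKM sums (-0.22, adjusted p = 0.0603). Fcrls, an Fc receptor-like gene, was at 0.08, 0.21 and 0.04 FPKM in control and 0.8, 3.09 and 2.06 FPKM in stone samples (limma, adjusted p = 0.0062).

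Of the 5 Toll-like receptors tested, 3 rose, against 43.5% of all tested genes, and Tlr2 had the highest log2(FPKM + 1) fold change of the 5. The 3 that rose had control means below 1 FPKM, so they entered the test only through their stone values. Neither of the 2 with means of at least 1 FPKM in both groups rose. Tlr2, which senses bacterial lipoproteins with Tlr1 or Tlr6, lies on chromosome 3 from 83836272 to 83841767 (GRCm38, minus strand). It measured 0.76, 0.66 and 0.88 FPKM in control and 4.56, 6.93 and 5.79 FPKM in stone samples. The lowest stone sample was several times the highest control sample, and Tlr2 rose from 0.767 ± 0.11 to 5.76 ± 1.19 FPKM (SD, n = 3 each; log2 fold change 1.92, SE 0.145; limma, adjusted p = 8.98e-05).

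Its partner Tlr1 was at 0.41, 0.52 and 0.49 FPKM in control and 1.67, 2.54 and 1.93 FPKM in stone samples and rose (log2 fold change 1.04, SE 0.14; limma, adjusted p = 0.000927). Tlr6, the other partner, which lies within 35 kb of Tlr1 on chromosome 5, was at 0.02 to 0.1 FPKM in control and 0.22 to 0.46 FPKM in stone samples, too low for the test. Tlr7, an endosomal sensor of single-stranded RNA, was at 1, 0.86 and 0.94 FPKM in control and 1.53, 2.05 and 1.63 FPKM in stone samples. It rose (log2 fold change 0.5, SE 0.121; limma, adjusted p = 0.0107), but not with quantile normalization (0.11, adjusted p = 0.475).

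The 2 Toll-like receptors of highest control level did not pass. Tlr12, a sensor of protozoan profilin in rodents, was at 7.26, 6.91 and 10.42 FPKM in control and 9.61, 9.28 and 8.62 FPKM in stone samples (log2 fold change 0.16, SE 0.142; limma, adjusted p = 0.348). Control sample 3 alone lay above the stone samples; without it the change passed (0.33, adjusted p = 0.0143), as it did with equal FPKM sums (0.41, adjusted p = 0.0448), while median-of-ratios scaling and quantile normalization gave -0.05 and -0.13. Tlr3, the endosomal sensor of double-stranded RNA that signals through Ticam1, was at 3.45, 3.29 and 3.78 FPKM in control and 3.61, 4.26 and 4.61 FPKM in stone samples (log2 fold change 0.19, SE 0.103; limma, adjusted p = 0.147). It passed with equal FPKM sums (0.41, adjusted p = 0.0129) and stood at -0.17 with quantile normalization. The ratio of Tlr2 to Tlr3 was 0.201 to 0.233 in control and 1.26 to 1.63 in stone samples, so the order of the pair turned round.

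The other 7 Toll-like receptors were fitted only with no filter, where 6 were called higher, against 33.3% of all genes, and 1 lower, against 10.0%. The same calls were made with median-of-ratios scaling as well, against 18.6% and 17.8%. Tlr4, the receptor of lipopolysaccharide and of several damage-associated ligands, was at 0.34, 0.25 and 0.5 FPKM in control and 1.04, 1.47 and 1.93 FPKM in stone samples (limma with no filter, adjusted p = 0.0051). Tlr13, a rodent sensor of bacterial ribosomal RNA, was at 0.2 to 0.33 FPKM in control and 0.98 to 1.6 FPKM in stone samples (limma with no filter, adjusted p = 0.00215). Tlr8, the neighbour of Tlr7 on the X chromosome, was at 0.04 to 0.1 FPKM in control and 0.47 to 0.95 FPKM in stone samples (limma with no filter, adjusted p = 0.00382). Tlr9, the endosomal sensor of CpG DNA, stood at 0.05 to 0.16 FPKM in control and 0.41 to 0.79 FPKM in stone samples, and Tlr5, the flagellin receptor, at 0.03 to 0.1 FPKM in control and 0.17 to 0.41 FPKM in stone samples. In none of these 6, Tlr6 included, did a stone value reach down to a control value. All 6 had been called higher, and the share without overlap among all untested genes was not computed.

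Tlr11, the profilin sensor related to Tlr12, went the other way. It measured 0.17, 0.15 and 0.15 FPKM in control and 0.07, 0 and 0 FPKM in stone samples, an estimated 6.9, 5.8 and 5.9 fragments in control and 2.9, 0 and 0 in stone samples. It was the 1 Toll-like receptor gene called lower with no filter (limma, adjusted p = 0.0111). So few fragments leave its level in stone samples 2 and 3 not detectable at this depth.

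**Figure D3:**
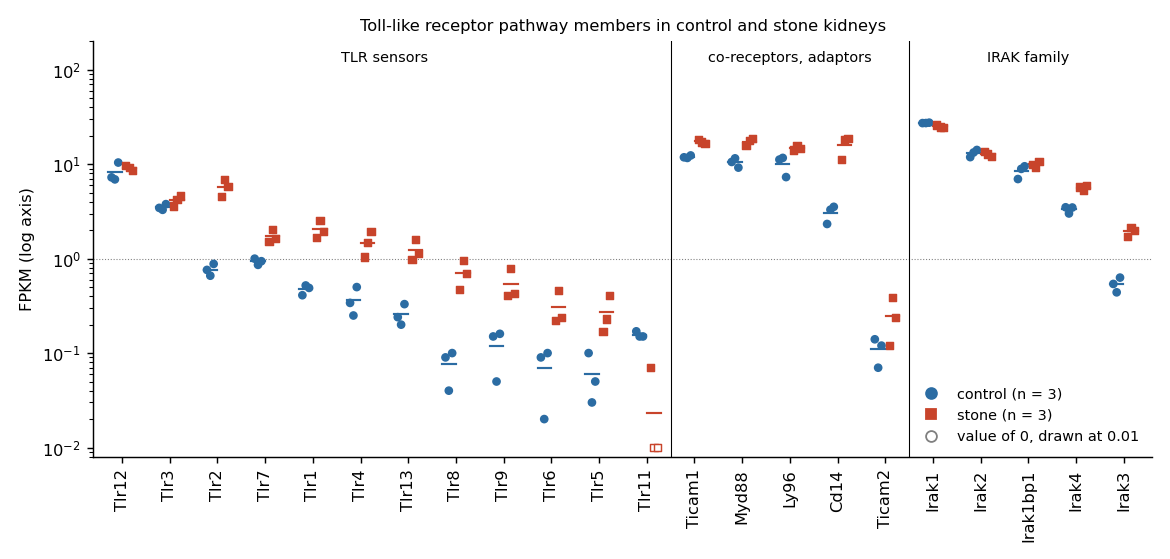
FPKM on a log axis for the 12 Toll-like receptors, the 5 co-receptors and adaptors and the 5 IRAK genes in 3 control (circles) and 3 stone (squares) samples, with bars at group means. Tlr2 lies at 0.66 to 0.88 FPKM in control and 4.56 to 6.93 FPKM in stone samples, while Tlr12 and Tlr3 overlap.

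All 4 co-receptors and adaptors that were tested rose, against 43.5% of all tested genes, and 3 of the 4 did with median-of-ratios scaling, against 23.9%. Cd14, which hands lipopolysaccharide and other ligands to the Toll-like receptors, measured 2.33, 3.3 and 3.54 FPKM in control and 11.21, 18.1 and 18.69 FPKM in stone samples. Stone sample 1 was the lowest of the stone group and still lay above all controls (log2 fold change 2.05, SE 0.205; limma, adjusted p = 0.000276). Ly96, which encodes MD-2, the lipid-binding partner of Tlr4, was at 11.2, 11.67 and 7.31 FPKM in control and 14.17, 15.58 and 14.78 FPKM in stone samples, with control sample 3 the lowest of its group. Its rise (log2 fold change 0.54, SE 0.158; limma, adjusted p = 0.0218) did not pass with median-of-ratios scaling (0.33, adjusted p = 0.143), with quantile normalization (0.3, adjusted p = 0.173) or without stone sample 2 (0.51, adjusted p = 0.0657).

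Myd88, the adaptor shared by nearly all Toll-like receptors and the receptors of the interleukin-1 family, was at 10.57, 11.54 and 9.21 FPKM in control and 15.9, 17.72 and 18.59 FPKM in stone samples (log2 fold change 0.69, SE 0.0972; limma, adjusted p = 0.00113). Ticam1, the adaptor of Tlr3 and of endosomal Tlr4, was at 11.84, 11.66 and 12.39 FPKM in control and 18.43, 17.17 and 16.7 FPKM in stone samples (log2 fold change 0.51, SE 0.0654; limma, adjusted p = 0.00076). Both were well expressed in control kidneys, and neither had overlapping groups. Ticam2, which bridges Tlr4 to Ticam1, was at 0.07 to 0.14 FPKM in control and 0.12 to 0.39 FPKM in stone samples, with overlap. The body of Myd88 overlaps that of Acaa1a on the opposite strand, which was at means of 72.9 FPKM in control and 72.1 FPKM in stone samples and was not called.

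Of the 5 IRAK genes, all tested, 2 rose (40.0%), a share near the 43.5% of all tested genes. They were the upstream kinase Irak4 and the inhibitory Irak3, which entered the test only through its stone values. Irak4, the first kinase recruited by Myd88, was at 3.5, 3.01 and 3.48 FPKM in control and 5.75, 5.26 and 5.93 FPKM in stone samples (log2 fold change 0.62, SE 0.0888; limma, adjusted p = 0.00121). Irak3, or IRAK-M, which restrains signalling in macrophages, was at 0.54, 0.44 and 0.63 FPKM in control and 1.72, 2.15 and 1.99 FPKM in stone samples (log2 fold change 0.94, SE 0.121; limma, adjusted p = 0.000749). In both genes every stone sample exceeded every control sample. Their bodies overlap Twf1 (Irak4) and Tmbim4 (Irak3) on the opposite strand, neither of which was called, Twf1 at means of 54.4 and 57.7 FPKM and Tmbim4 at 442 and 393 FPKM in control and stone samples.

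Irak1, the kinase phosphorylated by IRAK4 and the most abundant of the family, was at 27.27, 27.3 and 27.56 FPKM in control and 25.97, 24.78 and 24.72 FPKM in stone samples. Its groups did not overlap, but the change did not pass (log2 fold change -0.12, SE 0.0542; limma, adjusted p = 0.0995). It passed as lower with median-of-ratios scaling (-0.34, adjusted p = 0.00395) and quantile normalization (-0.28, adjusted p = 0.00815), and stood at 0.15 with equal FPKM sums. The ratio of Irak3 to Irak1 was 0.0161 to 0.0229 in control and 0.0662 to 0.0868 in stone samples. Irak2, a kinase that prolongs the signal, was at 11.89 to 14.16 FPKM in control and 12.1 to 13.56 FPKM in stone samples, and Irak1bp1 at 6.97 to 9.51 FPKM in control and 9.31 to 10.7 FPKM in stone samples; neither passed (limma, adjusted p = 0.782 and 0.14). Irak2 was called lower with quantile normalization (-0.28, adjusted p = 0.0411) and Irak1bp1 higher with equal FPKM sums (0.47, adjusted p = 0.0115).

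Further along the pathway the changes were mixed. Of 35 partners of Toll-like receptor signalling 33 were tested. Of the 33, 18 rose and 3 fell, against 43.5% and 13.9% of all tested genes. With median-of-ratios scaling 13 rose and 7 fell, against 23.9% and 24.9%. Their median log2 fold change was 0.23, close to that of all tested genes. Lbp, the lipopolysaccharide-binding protein that loads CD14, rose from 1.13 ± 0.29 to 7.25 ± 0.475 FPKM (SD, n = 3 each; limma, adjusted p = 4.26e-05). Nfkb1, an NF-kappaB subunit, was at 6.42, 6.22 and 7.33 FPKM in control and 14.6, 16.92 and 17.58 FPKM in stone samples (limma, adjusted p = 0.000111). Cd36, a scavenger receptor that also serves as a co-receptor of Tlr2, was at 278.83, 247.57 and 279.9 FPKM in control and 85.48, 106.81 and 86.64 FPKM in stone samples and fell (limma, adjusted p = 5.68e-05).

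Of 21 genes listed here for endogenous ligands of these receptors 17 were tested. The list is broad, and Spp1 and Lcn2 on it are not established ligands of Toll-like receptors. Of the 17, 13 rose and 1 fell, against 43.5% and 13.9% of all tested genes. Their median log2 fold change was 2.06, beside 0.21 for all tested genes. Spp1, the matrix protein osteopontin, was at 509.11, 615.67 and 544.39 FPKM in control and 7975.82, 8209.13 and 7298 FPKM in stone samples (limma, adjusted p = 5.81e-06). The fibrinogen chain genes Fgg and Fga both rose, Fgg from 4.26 ± 1.05 to 77.6 ± 14.5 FPKM and Fga from 12 ± 1.48 to 65.7 ± 9.69 FPKM (SD, n = 3 each; limma, adjusted p = 1.42e-05 and 2.13e-05). Hspd1, the mitochondrial chaperonin, fell from 312 ± 13 to 189 ± 14.8 FPKM (SD, n = 3 each; limma, adjusted p = 0.000325). Many genes of this list are also known from injured tubules and from matrix.

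All 3 NLR genes that passed the filter fell, against 13.9% of all tested genes, or 24.9% with median-of-ratios scaling, where all 3 fell too; with equal FPKM sums 1 of the 3, Nlrc4, was called, against 6.47%. Nlrc4, the core of the inflammasome that responds to flagellin and to bacterial secretion systems, lies on chromosome 17 from 74425438 to 74459142 (GRCm38, minus strand). It measured 2.45, 1.56 and 2.66 FPKM in control and 0.37, 0.8 and 0.66 FPKM in stone samples. Its stone mean was 0.61 FPKM, so Nlrc4 entered the test only through its control values. All stone samples lay below all control samples, and the fold change on the log2(FPKM + 1) scale was the lowest of the 34 (log2 fold change -0.99, SE 0.179; limma, adjusted p = 0.00318). The call held under each of the 13 other settings, between -1.73 and -0.85.

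Nlrp6, an NLR of epithelia, was at 37.59, 31.27 and 37.72 FPKM in control and 25.9, 30.14 and 24.81 FPKM in stone samples (log2 fold change -0.39, SE 0.102; limma, adjusted p = 0.0154), and control sample 2 and stone sample 2 differed little. Nlrp6 was not called without control sample 1 (-0.34, adjusted p = 0.0558) or when FPKM sums were made equal (-0.11, adjusted p = 0.373). Nlrx1, a mitochondrial NLR that dampens antiviral and NF-kappaB signalling, was at 6.68, 6.21 and 5.61 FPKM in control and 4.13, 4.59 and 4.39 FPKM in stone samples (log2 fold change -0.41, SE 0.0872; limma, adjusted p = 0.00597), a fall lost when FPKM sums were made equal (-0.18, adjusted p = 0.0937).

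Nlrp3, the sensor that responds to crystals, was too low for the test. It measured 0.08, 0.06 and 0.1 FPKM in control and 0.11, 0.76 and 0.6 FPKM in stone samples, an estimated 4.2, 3 and 5 fragments in control and 5.8, 40.7 and 33.5 in stone samples. Stone samples 2 and 3 were high and stone sample 1 was barely above the controls. With no filter it did not pass (limma, adjusted p = 0.0765).

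Of the other 10 NLR genes, 3 were called higher with no filter, a share near the 33.3% of all genes. Nlrp1a was at 0.05 to 0.08 FPKM in control and 0.22 to 0.28 FPKM in stone samples, Nlrp10 at 0.07 to 0.1 FPKM in control and 0.16 to 0.2 FPKM in stone samples and Nlrc5, the transactivator of MHC class I genes, at 0.43 to 0.49 FPKM in control and 0.61 to 0.66 FPKM in stone samples. With median-of-ratios scaling as well, where 18.6% of all genes were called higher, the Nlrp1a call held. Nlrp10 and Nlrc5 were then not called (limma, adjusted p = 0.0549 and 0.163). Nlrc3 was at 0.13 to 0.38 FPKM in control and 0.39 to 0.51 FPKM in stone samples and Nlrp1b at 0.18 to 0.33 FPKM in control and 0.27 to 0.41 FPKM in stone samples, neither of them called; Nlrp1a and Nlrp1b are close relatives within 138 kb of chromosome 11, so fragments they share are uncertain. The remaining 5 (Nlrp2, Nlrp4f, Nlrp5, Nlrp9b and Nlrp12) did not exceed 0.14 FPKM in any sample.

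Of 18 inflammasome partners in the data 11 were tested and 6 rose, against 43.5% of all tested genes. With median-of-ratios scaling 5 were higher and 2 lower, against 23.9% and 24.9%. Quantile normalization gave 4 higher and 1 lower, against 22.3% and 25.5%. The median log2 fold change of the 11 was 0.49, beside 0.21 for all tested genes. Pycard, the adaptor ASC that links NLR proteins to caspase-1, was at 3.63, 4.05 and 2.99 FPKM in control and 8.74, 9.44 and 8.38 FPKM in stone samples (limma, adjusted p = 0.000218). Panx1, a membrane channel gene, rose from 0.457 ± 0.0987 to 1.57 ± 0.332 FPKM and Gsdmd, the pore-forming substrate of inflammatory caspases, from 1.38 ± 0.283 to 3.21 ± 0.797 FPKM (SD, n = 3 each; limma, adjusted p = 0.00291 and 0.00533).

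The C-type lectins were the largest family, and many of them lie in 2 stretches of chromosome 6 (GRCm38). The first, from 122921848 to 123289870, holds 9 members in 368 kb: Clec4a1, Clec4a3, Clec4a4, Clec4b1, Clec4a2, Clec4b2, Clec4n, Clec4d and Clec4e. The 4 tested there rose, against 43.5% of all tested genes. Of these, Clec4a2, Clec4a3 and Clec4n entered the test only through their stone values. With no filter 6 of the 9 were called higher, against 33.3%, and with median-of-ratios scaling as well 5 were, against 18.6%. The second, from 128662385 to 129472779, holds 11 members in 810 kb, of which 5 were tested and 3 rose, against the same 43.5%.

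Clec4n, of the first stretch, encodes Dectin-2, a receptor for fungal mannans coupled to Fcer1g. It measured 0.16, 0 and 0 FPKM in control and 0.95, 5.3 and 2.78 FPKM in stone samples, an estimated 2.2, 0 and 0 fragments in control and 13, 73.6 and 40.3 in stone samples. The stone samples differed several-fold among themselves, and no control value reached the lowest of them. Clec4n rose (log2 fold change 1.77, SE 0.384; limma, adjusted p = 0.00676), by a fold change that depends on the value added before the logarithm and was 4.21 with 0.1 FPKM added.

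Clec4e, or Mincle, a sensor of mycobacterial glycolipid and of dead cells, was at 0.03, 0 and 0.03 FPKM in control and 0.28, 0.67 and 0.44 FPKM in stone samples and was called higher with no filter (limma, adjusted p = 0.0069). Clec4d, its partner MCL, was at 0, 0.07 and 0 FPKM in control and 0.13, 1.15 and 0.86 FPKM in stone samples and was not called (limma with no filter, adjusted p = 0.0503). In both genes stone sample 2 was the highest. Of the dendritic cell immunoreceptor genes of this stretch, Clec4a1, Clec4a2 and Clec4a3 also rose. Clec4a2, whose product DCIR carries an inhibitory motif, was at 1.2, 0.57 and 0.69 FPKM in control and 3.3, 3.88 and 3.62 FPKM in stone samples (log2 fold change 1.35, SE 0.149; limma, adjusted p = 0.000399). Clec4a3 was at 0.41, 0.58 and 0.49 FPKM in control and 2, 3.69 and 2.48 FPKM in stone samples (log2 fold change 1.29, SE 0.177; limma, adjusted p = 0.000982), and Clec4a1 at 1.31, 0.92 and 1.65 FPKM in control and 2.73, 4.34 and 2.86 FPKM in stone samples (log2 fold change 0.9, SE 0.182; limma, adjusted p = 0.00497). These genes are close paralogs, so the division of fragments among them is uncertain. Clec4b1 was at 0.14 to 0.53 FPKM in control and 0.53 to 1.11 FPKM in stone samples, so that its groups touched; it was called higher with no filter (limma, adjusted p = 0.0467) and not with median-of-ratios scaling as well (adjusted p = 0.0902). Clec4a4 and Clec4b2 did not exceed 0.1 FPKM in any sample.

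In the second stretch, Clec7a encodes Dectin-1, the receptor of fungal beta-glucan with an activation motif of its own. It measured 0.9, 0.98 and 1.17 FPKM in control and 2.39, 6.86 and 3.98 FPKM in stone samples. Stone sample 2 was the highest and stone sample 1 the lowest of the stone group, still above every control sample (log2 fold change 1.34, SE 0.279; limma, adjusted p = 0.00568). Clec12a, an inhibitory receptor reported to sense uric acid crystals and dead cells, was at 1.55, 1.04 and 0.9 FPKM in control and 2.14, 3.9 and 2.76 FPKM in stone samples. It rose (log2 fold change 0.85, SE 0.192; limma, adjusted p = 0.00796), but not with quantile normalization (0.45, adjusted p = 0.0755).

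Clec2d, whose product is a ligand of an NK cell receptor, had a level far above the other lectin genes that rose. It measured 25.4, 25.38 and 22.28 FPKM in control and 40.22, 41.57 and 38.89 FPKM in stone samples (log2 fold change 0.7, SE 0.0707; limma, adjusted p = 0.000279), and its stone samples were close together. Its relative Clec2h was at 25.02, 29.4 and 35.02 FPKM in control and 40.66, 25.31 and 28.6 FPKM in stone samples, with overlapping groups (log2 fold change 0.06, SE 0.186; limma, adjusted p = 0.792) and a sign that differed by scaling (-0.16 with median-of-ratios scaling). Clec1a, a lectin of endothelial and myeloid cells, was at 0.66, 0.52 and 1.25 FPKM in control and 0.97, 1.5 and 1.18 FPKM in stone samples (log2 fold change 0.31, SE 0.183; limma, adjusted p = 0.186). Without control sample 3 it passed (0.47, adjusted p = 0.0476), and with quantile normalization it stood at -0.12.

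Clec9a encodes DNGR-1, the receptor of cross-presenting dendritic cells for exposed actin filaments. It was at 0.69, 0.59 and 0.62 FPKM in control and 0.54, 0.43 and 0.49 FPKM in stone samples, with all stone samples below all controls. With no filter it was not called (limma, adjusted p = 0.0856), and with median-of-ratios scaling as well it was called lower (-0.22, adjusted p = 0.022). Its body overlaps that of Clec1b, the platelet receptor of podoplanin, on the same strand; Clec1b was at 0.11 to 0.39 FPKM in control and 0.15 to 0.44 FPKM in stone samples. The others of this stretch had low and overlapping values, Clec12b at 0.12 to 0.61 FPKM in control and 0.16 to 0.33 FPKM in stone samples, and Clec2e, Clec2f and Clec2i at no more than 0.36 FPKM in any sample.

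Of the 9 lectin genes elsewhere, Clec14a, a lectin of endothelium, was at 1.52, 1.25 and 2.05 FPKM in control and 2.4, 2.32 and 3.46 FPKM in stone samples. Its rise (log2 fold change 0.51, SE 0.165; limma, adjusted p = 0.0317) was lost with median-of-ratios scaling (0.36, adjusted p = 0.092), with quantile normalization (0.12, adjusted p = 0.485), and without control sample 1, control sample 2 or stone sample 3 (0.5, 0.41 and 0.38; adjusted p = 0.0855, 0.0978 and 0.0886). The 12 endothelial markers, of which 9 rose (8 with median-of-ratios scaling, 7 with quantile normalization), summed to 127.8 to 211.8 FPKM in control and 244 to 346.4 FPKM in stone samples, and their part in the Clec14a values was not tested. Clec16a was at 24.37 to 28.14 FPKM in control and 24.62 to 26.87 FPKM in stone samples and did not pass (log2 fold change -0.03, SE 0.0759; limma, adjusted p = 0.726). Its direction followed the scaling, with -0.26, adjusted p = 0.0158 for median-of-ratios scaling and 0.24, adjusted p = 0.0385 for equal FPKM sums. Clec11a, a secreted growth factor of bone marrow stroma, was at 1.18 to 2.21 FPKM in control and 2.09 to 2.47 FPKM in stone samples (log2 fold change 0.27, SE 0.157; limma, adjusted p = 0.182) and passed with equal FPKM sums (0.45, adjusted p = 0.0327).

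Clec5a, a receptor that pairs with Tyrobp, was at 0.08, 0.06 and 0.02 FPKM in control and 0.25, 1.13 and 0.81 FPKM in stone samples. Clec10a, the galactose-type lectin of macrophages and dendritic cells, was at 0.17, 0.48 and 0.06 FPKM in control and 0.5, 1.51 and 0.91 FPKM in stone samples. Clec18a was at 0.14 to 0.34 FPKM in control and 0.67 to 1.74 FPKM in stone samples. These 3 and Clec2l, at 0 to 0.13 FPKM in control and 0.18 to 0.28 FPKM in stone samples, were called higher with no filter (limma, adjusted p = 0.0272, 0.0457, 0.0215 and 0.0393), but Clec10a and Clec2l were not with median-of-ratios scaling as well (adjusted p = 0.0737 and 0.0683). Clec3b, the plasma protein tetranectin, was at 0.1 to 0.41 FPKM in control and 0.1 to 0.73 FPKM in stone samples, and Clec4g was above 0 only in stone sample 1, at 0.14 FPKM.

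**Figure D4:**
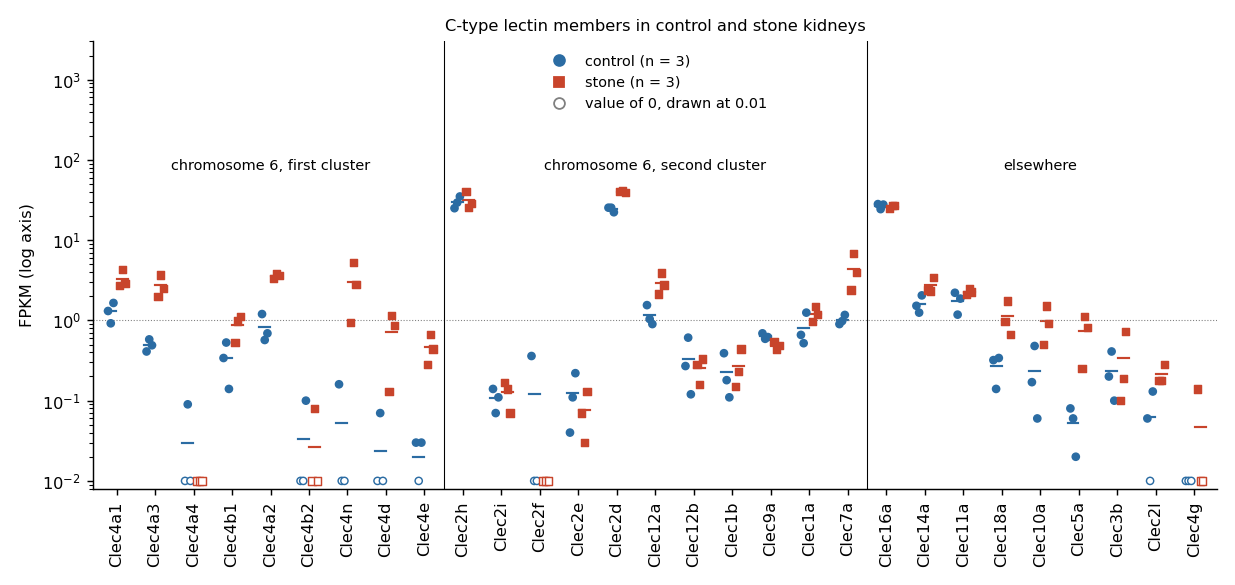
FPKM on a log axis for the 29 C-type lectin members in 3 control (circles) and 3 stone (squares) samples, with bars at group means, values of 0 drawn open at 0.01 and a dotted line at 1 FPKM. Clec2d lies at 22.28 to 25.4 FPKM in control and 38.89 to 41.57 FPKM in stone samples, and Clec4n at 0 to 0.16 FPKM in control and 0.95 to 5.3 FPKM in stone samples.

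The stone samples were not alike in these genes. Of the 20 members that rose, 15 had their highest stone value in sample 2, 4 in sample 3 and 1 in sample 1, whereas of all 5356 genes that rose 32.9% had it in sample 2, 46.6% in sample 3 and 20.5% in sample 1. The 16 macrophage and monocyte markers summed to 282, 629 and 428 FPKM in stone samples 1 to 3 and 107.6 to 115.5 FPKM in control samples. Of 15 tested, 13 rose and 1 fell. Much of the difference among the stone sums is Lyz2, at 68.84, 268.56 and 143.32 FPKM in stone samples 1 to 3. C1qa had the same order, at 50.28, 90.57 and 66.46 FPKM. The 12 neutrophil markers summed to 30.72, 21.37 and 20.67 FPKM in stone samples 1 to 3 and 2.28 to 5.54 FPKM in control samples. The 3 tested rose, but they differed in order among stone samples 1 to 3. S100a8, at 18, 9.58 and 7.21 FPKM, set the order of the sum. S100a9 was highest in sample 3, at 8.13, 7.83 and 9.8 FPKM, and Csf3r in sample 2, at 1.74, 1.98 and 1.64 FPKM. The part of the macrophage or the neutrophil markers in the receptor values was not tested. Without stone sample 2, Ly96 was the only 1 of the 20 to lose its call.

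**Figure D5:**
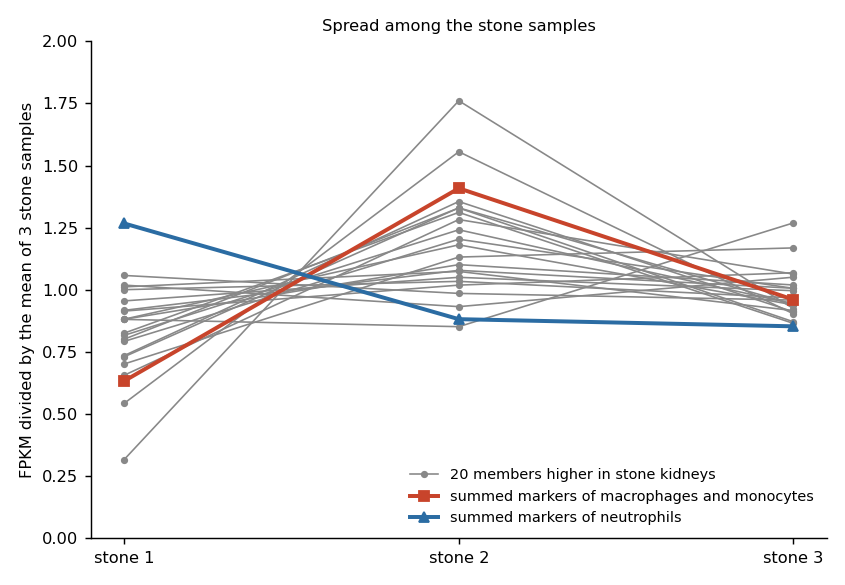
Each grey line joins the 3 stone samples of 1 of the 20 members that rose, as FPKM divided by the mean of the stone samples. The heavy lines give the summed markers of macrophages and monocytes (squares), highest in sample 2, and of neutrophils (triangles), highest in sample 1 through S100a8. The samples have no order.

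Markers of other cells gave these summed levels. Calls of all markers named here stand beside 43.5% higher and 13.9% lower among all tested genes. The dendritic cell list, most of it Cd24a, which tubule cells also express, summed to 123.2 to 143.8 FPKM in control and 231.1 to 389.7 FPKM in stone samples, and of 4 tested 3 rose, or 2 with median-of-ratios scaling, where Zbtb46 was lost (adjusted p = 0.0791), and 1 with quantile normalization. None of the T and NK cell markers reached the level for testing, and they summed to 3.74 to 4.91 FPKM in control and 2.12 to 2.97 FPKM in stone samples. B and plasma cell markers summed to 3.32 to 6.31 FPKM in control and 2.65 to 4.07 FPKM in stone samples. Mast cell and basophil markers, most of the sum Kit, came to 3.51 to 4.34 FPKM in control and 3.31 to 3.73 FPKM in stone samples. Platelet markers summed to 3.48 to 5.08 FPKM in control and 6 to 10.23 FPKM in stone samples. Among them Pf4 was at means of 1.44 and 6.54 FPKM in control and stone samples. Itga2b, at means of 1.29 and 1.28 FPKM, and Gp1ba, at 0.52 and 0.467 FPKM, were no higher in stone samples. Fibroblast markers summed to 31.02 to 45.68 FPKM in control and 111.3 to 196.1 FPKM in stone samples, and all 7 tested rose. Tubule markers of the labelled tissue were present, with Slc34a1 of the proximal tubule at means of 2617 and 1661 FPKM in control and stone samples and the other tubule epithelium at sums of 2316 to 2712 FPKM in control and 1766 to 2642 FPKM in stone samples. No marker found in the data was at 0 in all samples.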

How the data were processed

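RNA of 6 kidney samples, 3 control and 3 stone, was grouped by sample title. Libraries kept the strand by dUTP and were sequenced as DNA nanoballs, per the labels' protocols. Alignment was with HISAT2 2.0.4 to GRCm38.p6, per the submitters' processing notes; quantifier, annotation and use of strand: not given in the sources used here. Values were deposited by the authors as FPKM with 2 decimals.

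Genes averaging 1 FPKM or more were tested with limma 3.58.1 in R 4.3.3 (lmFit, eBayes with trend, two-sided) on log2(FPKM + 1), Benjamini-Hochberg adjusted across 12319 genes, threshold 0.05. This scale understates changes of low genes. An exact permutation test of 3 against 3 samples cannot go below p = 0.1. No label names separate animals, so p-values measure only the spread between samples, possibly technical. Other settings were a pseudocount of 0.1, 2 other filters, 3 scalings, a replicate block and leaving out each sample.

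Depth was estimated from 7440 genes with 1 GENCODE M21 transcript, from FPKM times length less 250 bases; fragments quoted for a gene are such estimates and cover counting error only. No count model was run. Both procedures were tested on simulated data. Positions are from GENCODE M21. Members and gene lists were chosen with earlier results of these data known. Named are all tested members, the 3 highest untested of each role, and up to 3 genes of smallest p per list with the leading opposite one; other low members were named after their values were seen. No protein sequence was used here.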

Additional observations from a re-analysis of the deposited data

How the results depend on the processing

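Across 13 other settings, 16 of the 20 members that rose and 2 of the 4 that fell, Nlrc4 and Fcgrt, were called in every one, and no called member was called the other way; the calls lost are given with each gene. Members called higher went from 20 to 35 with no filter, which fits 70 members in place of 34. Members called lower went from 4 to 7 with median-of-ratios scaling, 7 with quantile normalization, 2 with equal FPKM sums and 9 with no filter and median-of-ratios scaling together. For all genes, 5356 higher and 1711 lower became 2948 and 3064 with median-of-ratios scaling, 2744 and 3138 with quantile normalization, 8440 and 797 with equal FPKM sums, and 3279 and 3123 with no filter and median-of-ratios scaling. Leaving out 1 sample gave 19 to 22 members higher and 3 to 5 lower, and 4265 to 5242 genes higher and 1360 to 1697 lower. The replicate block gave 20 members higher and 4 lower, and 4861 and 1517 genes; same-numbered samples deviated with r of 0.0075, -0.22 and -0.0397, so the numbers were not taken to pair samples.

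Signs turned in genes that had not passed, and in Lman1. With quantile normalization the log2 changes were -0.12 for Clec11a, -0.12 for Clec1a, -0.09 for Clec2h, -0.06 for Irak1bp1, -0.13 for Tlr12 and -0.17 for Tlr3. With median-of-ratios scaling they were -0.16 for Clec2h and -0.05 for Tlr12. With equal FPKM sums they were 0.24 for Clec16a, 0.15 for Irak1, 0.23 for Irak2 and 0.08 for Lman1. Leaving out 1 sample, Clec16a ranged from -0.1 to 0.01, Clec2h from -0.13 to 0.2 and Irak2 from -0.09 to 0.02. The cause was not tested. Members under 0.1 FPKM rest on a few fragments a sample, which limits what can be said of them.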

Other observations

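Lectin-domain genes outside the symbol rule: of 35 in the data, 11 were tested, and 7 rose and 1 fell. All tested genes gave 43.5% and 13.9%. The median log2 fold change of the 11 was 0.91. Mrc1, the mannose receptor of macrophages, was at 0.57, 0.35 and 0.58 FPKM in control and 2.33, 5.41 and 3.68 FPKM in stone samples (limma, adjusted p = 0.00114). Mrc2, a collagen uptake receptor of fibroblasts, rose from 2.52 ± 0.656 to 10.7 ± 2.04 FPKM, and Thbd, the endothelial thrombin receptor thrombomodulin, from 3.69 ± 0.421 to 11.6 ± 0.95 FPKM (SD, n = 3 each; limma, adjusted p = 0.00027 and 6.2e-05). Lman1, a cargo receptor of the secretory pathway, was at 37.52, 36.19 and 38.43 FPKM in control and 31.5, 34.14 and 32.48 FPKM in stone samples and fell (limma, adjusted p = 0.0289). Lman1 was not called when FPKM sums were made equal (0.08, adjusted p = 0.306), with the replicate block (-0.19, adjusted p = 0.0764), and on leaving out control 1, control 3, stone 1 or stone 3 (-0.18, -0.17, -0.16 and -0.18; limma, adjusted p = 0.0826, 0.0627, 0.0804 and 0.0783).

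Of 12 other cytosolic sensors and partners in the data 10 were tested and 5 rose, a share near the 43.5% of all tested genes. With median-of-ratios scaling 3 were higher and 1 lower, against 23.9% and 24.9%. Mavs, the mitochondrial adaptor of RNA sensors, was at 31.99, 31.47 and 31.22 FPKM in control and 53.17, 54.9 and 52.37 FPKM in stone samples (limma, adjusted p = 7.05e-05). Ddx58, the RNA sensor RIG-I, rose from 5.62 ± 0.368 to 12 ± 1.27 FPKM, and Ciita, the transactivator of MHC class II genes, from 0.657 ± 0.0902 to 1.64 ± 0.252 FPKM (SD, n = 3 each; limma, adjusted p = 0.000225 and 0.00386). The Ciita call was lost with quantile normalization (0.25, adjusted p = 0.216).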
